A study of Mus musculus with 21 samples.

Results

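Of the 5125 H2Bub1 domains listed in mouse cells differentiated for 4 days, 264 (5.15%) overlapped no domain of the embryonic stem (ES) cell list and none of the list from ES cells that overexpress Fbxl19, by as little as 1 bp. They are called differentiation-specific domains below, and they were chosen by their presence in the first list and their absence from the other 2, so those 3 lists are a description of them and no result. The 5 H2Bub1 lists of the study held 18181 domains in all. The cells were J1 mouse ES cells, and chromatin was precipitated with an antibody to H2Bub1 in 2 differentiated samples, 3 ES samples, 3 samples of a clone with tagged Fbxl19 at more than 5 times the endogenous level (OE-high), 2 samples of ES cells with Fbxl19 knocked down and 2 differentiated samples with Fbxl19 knocked down. Tagged Fbxl19 was pulled down with streptavidin in 2 samples of the OE-high clone and in 2 samples of a clone below the endogenous level (OE-low, in J1 cells that contain the biotin ligase BirA), and Rnf20 in 1 sample of BirA-containing cells. The labels give neither the way the cells were differentiated nor the knockdown reagent, and each expression level is 1 clone.

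H2Bub1 is histone H2B carrying a single ubiquitin, placed by the E3 ligase formed by Rnf20 and Rnf40 during transcription, and it spreads over the bodies of transcribed genes behind elongating RNA polymerase II. Fbxl19 is an F-box protein whose CXXC zinc finger binds unmethylated CpG, so it sits at CpG islands, which mark the promoters of most housekeeping and many developmental genes. H2Bub1 is known to increase as ES cells leave pluripotency, and differentiation brings transcription to genes that were silent or poised before.

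Each group had 1 list that pools its samples, so no spread between replicates could be set against a difference and no test over samples was possible. Shares below carry exact Clopper-Pearson intervals at 95% in brackets, and differences carry an interval built from both shares. These cover the counting of domains only, and domains of one list are not replicates. The depth per sample is unknown, and list sizes differed, with 7216 domains over 246 Mb in OE-high cells, 5125 over 156 Mb in differentiated cells and 2937 over 57.4 Mb in ES cells. The track names of these lists carry the labels 46M, 36M and 60M, and those of the knockdown lists 46M in ES cells and 41M in differentiated cells, with no statement of what the number counts. Positions are on mm9, counted from 1, with no annotation of that build used here, so the domains are named by position and not by gene.

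**Figure D1:**
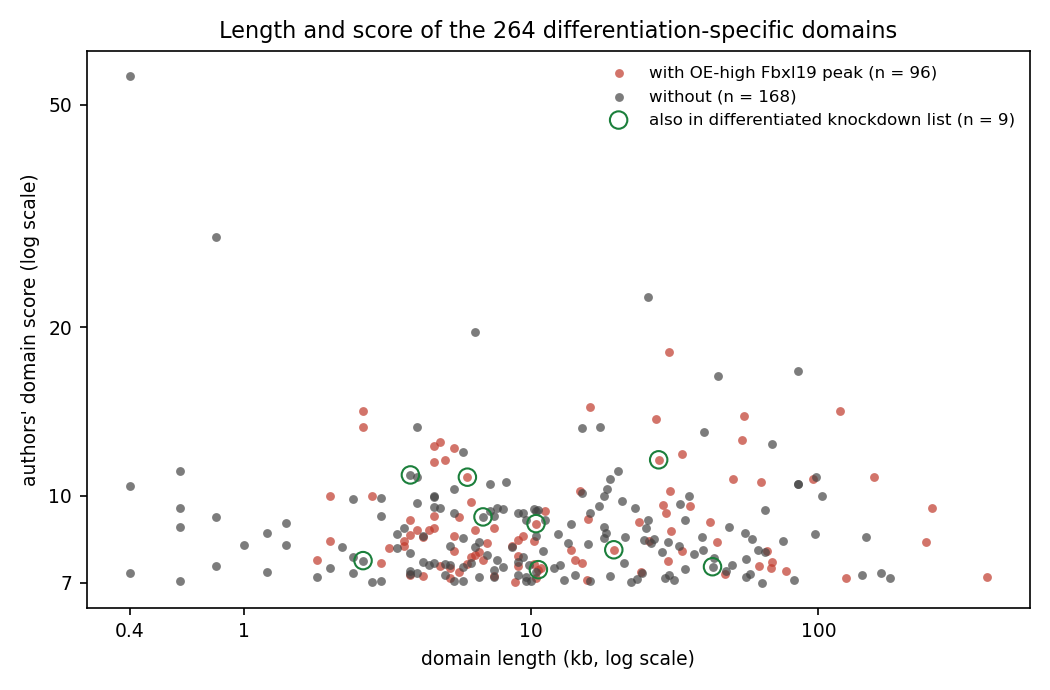
Each point is 1 of the 264 differentiation-specific domains, by length in kb and the authors' domain score, both on log axes. Red points hold an OE-high Fbxl19 peak and green rings mark the 9 domains also in the differentiated knockdown list. Most points lie between 7 and 10 in score, and those with the highest scores, 56.3 and 29.0, are under 1 kb long and hold no such peak.

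The differentiation-specific domains were shorter and lower in score than the rest of the differentiated list, described here without a test because both values come from the list that the choice used. Their median length was 10100 bp (quartiles 4800 and 29700 bp), against 20200 bp (9400 and 39800 bp) for the other 4861 differentiated domains. Their median score was 8.32 (quartiles 7.51 and 9.52), against 10.2 (8.50 and 13.2), where 7 is the lowest score in any H2Bub1 list. A score under 8 was listed for 106 of them (40.2%), beside 18.2% of all differentiated domains, and 47 lay above the median of the whole differentiated list. Together they covered 6.77 Mb, 4.35% of the length of that list.

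Length ran over a wide range, and very long domains were as frequent as in the whole list. In all, 89 of the 264 reached 20 kb (33.7%, beside 49.8% of all differentiated domains), and 11 reached 100 kb (4.17%, beside 4.21%). The longest, chr11:34934600-35320399, ran over 385800 bp, the second longest domain of the whole differentiated list, at a score of 7.16. It held 4 OE-high Fbxl19 peaks, more than any other of these domains, none with a summit within 1 kb of an end, and no Rnf20 peak. The next were chr1:170114400-170362199 at 247800 bp with a score of 9.50, which held 1 Fbxl19 peak of each clone, and chr13:28742000-28978599 at 236600 bp with a score of 8.28 and 1 OE-high Fbxl19 peak. Next in length, chr13:15555400-15733599 (178200 bp, score 7.14) and chr18:44657000-44821999 (165000 bp, 7.27), held no peak of Fbxl19 or Rnf20. OE-high Fbxl19 peaks were found in 6 of the 11 longest domains, those that reached 100 kb, and Rnf20 peaks in 2, beside 85.2% and 44.4% of all 216 differentiated domains of that length. At the other end, 10 domains were shorter than 1 kb, with scores from 7.05 to 56.3, and no Fbxl19 or Rnf20 peak lay in any of these 10. OE-high Fbxl19 peaks were absent from all 24 differentiated domains under 1 kb, while Rnf20 peaks lay in 6 of these 24 (25.0%). With only 10 domains, the absence of Rnf20 peaks still allows a share of up to 30.0%, a range that includes 25.0%.

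The highest scores fell on domains of very different length. The top score, 56.3, belonged to the 400 bp of chr13:77578000-77578399, and the next, 29.0, to the 800 bp of chrX:139917200-139917999. They were followed by chr1:94972800-94998399 (25600 bp, score 22.7), chr11:48678200-48684599 (6400 bp, 19.6), chr11:108781800-108811999 (30200 bp, 18.1), chr7:139424000-139508799 (84800 bp, 16.7), chr11:103634200-103678799 (44600 bp, 16.4) and chr14:121434800-121450799 (16000 bp, 14.4). Of these 8, the domain at 108781800 on chromosome 11 and that on chromosome 14 held an OE-high Fbxl19 peak. Each had an OE-high Fbxl19 summit within 1 kb of an end. Among all 264 the share with an OE-high Fbxl19 peak was 36.4%. None of the 8 held an Rnf20 peak or was listed in a knockdown. With only 8 domains, each absence still allows a share of up to 37.5%. That range includes the Rnf20 share of all 264 (11.4%) and of all differentiated domains (32.1%), and the 3.41% of the 264 in each knockdown list.

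**Figure D2:**
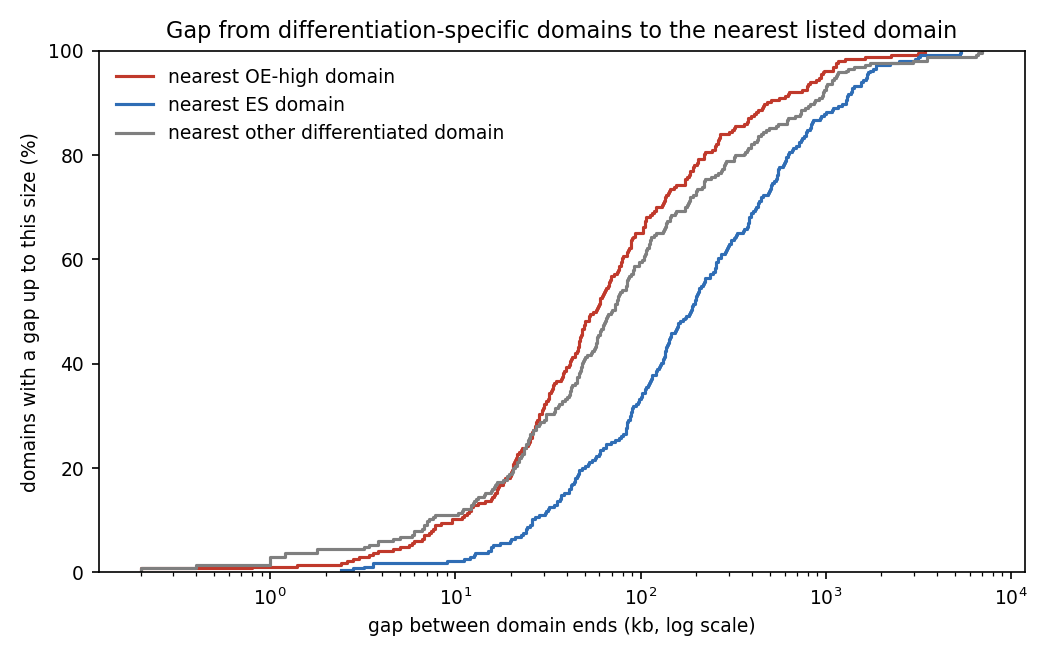
The curves give the percent of the 264 differentiation-specific domains whose gap to the nearest OE-high domain, ES domain or other differentiated domain is at most the value on the log axis in kb. The median gaps are 56.5 kb, 187 kb and 69.5 kb, and 3 of the 264 lie within 1 kb of an OE-high domain.

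Distances to the lists that the rule used are given as a description. The gap to the nearest OE-high domain had a median of 56.5 kb (quartiles 25.1 and 174 kb), and that to the nearest ES domain a median of 187 kb (71.8 and 530.1 kb). An OE-high domain lay within 1 kb of 3 domains, within 10 kb of 27 and more than 100 kb away from 92. Within 100 kb on either side, 65.2% of the 264 had an OE-high domain, and 33.3% had an ES domain, against 34.2% of new domains shared with OE-high. The nearest were chr1:89814400-89814999 and chr17:6085000-6086799, each 200 bp from an OE-high domain, and chr15:78604800-78633399 at 800 bp. The farthest was chrX:67714600-67730399, 3430 kb from one, followed by chr12:48913800-48914199 at 3162 kb and chr3:113325000-113335399 at 2252 kb. Outside the rule, the shortest overlaps with either list measured 400 bp. In chr11:4035200-4038399 this was 400 of 3200 bp, covered by an OE-high domain, and in chr12:3109600-3110199 it was 400 of 600 bp, covered by an ES domain. The domain chr19:40696400-40696799 is itself 400 bp long and lay wholly inside an OE-high domain.

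The nearest other differentiated domain was also differentiation-specific for 27 of the 264 (10.2%, where such domains are 5.15% of the list), a domain shared with OE-high but not ES for 116, and a domain shared with both for 117. In list order, 223 had no other differentiation-specific domain next to them, and 19 pairs and 1 run of 3 followed each other directly. The pair with the shortest span was chr19:57527400-57539399, whose domains held no OE-high Fbxl19 or Rnf20 peak.

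**Figure D3:**
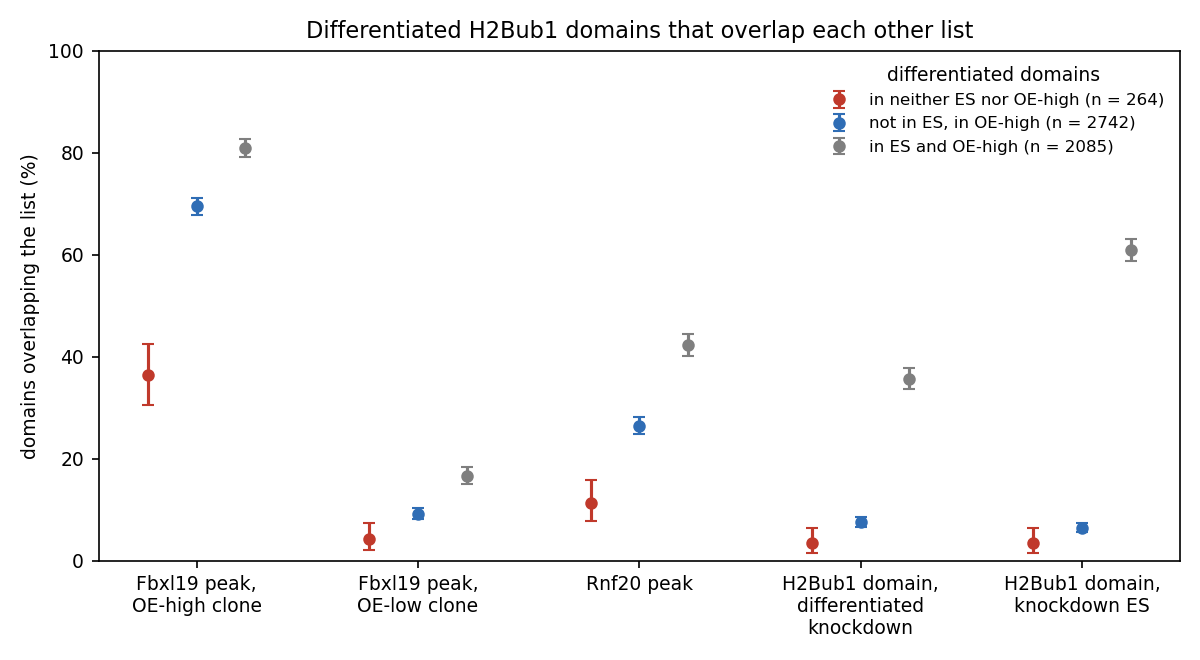
Percent of differentiated H2Bub1 domains that overlap each of 5 other lists by at least 1 bp, with exact 95% intervals for counting error. Red is the 264 differentiation-specific domains, blue the 2742 domains in OE-high but not ES, and grey the 2085 domains in both. Red lies lowest in each list, at 36.4% for OE-high Fbxl19 against 69.5% and 80.9%.

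Fbxl19 peaks were scarcer in the differentiation-specific domains than in the other domains new to differentiated cells. OE-high Fbxl19 peaks were present in 96 of the 264 (36.4%, 30.6 to 42.5), beside 72.3% of all differentiated domains. The closest comparison is with the 2742 differentiated domains that are likewise absent from ES cells but are listed in OE-high cells, of which 1905 (69.5%, 67.7 to 71.2) held such a peak. The difference was -33.1 percentage points (-39.2 to -26.7). Among the 2085 differentiated domains listed in both ES and OE-high cells the share was 80.9% (79.2 to 82.6), and among the 34 in ES cells but not OE-high it was 55.9% (37.9 to 72.8). The Fbxl19 peaks and the OE-high H2Bub1 list come from the same clone of undifferentiated cells, and Fbxl19 binding in differentiated cells was not analysed here. With the 3 H2Bub1 lists each held to the 2937 highest-scoring domains, the number of ES domains, 576 domains met the rule, and 64.2% of them held an OE-high Fbxl19 peak against 74.0% of new domains shared with OE-high, a difference of -9.72 points (-14.7 to -4.72).

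The low share was found at every length. OE-high Fbxl19 peaks were present in 33.8% of the 68 differentiation-specific domains under 5 kb (22.8 to 46.3) against 59.3% of new domains shared with OE-high in that class (53.9 to 64.6). They were present in 39.7% of the 63 domains of 5 to 10 kb against 66.6%, and in 34.1% of the 44 domains of 10 to 20 kb against 64.1%. Among the 89 of 20 kb and over the share was 37.1% (27.1 to 48.0) against 75.9% (73.5 to 78.2). Thus the share in domains shared with OE-high was higher in the longest class than in the shortest, while that in differentiation-specific domains stayed between 33.8% and 39.7%. By density too the differentiation-specific domains lay below the domains shared with OE-high. They held 109 OE-high Fbxl19 peaks in 6.77 Mb, or 16.1 per Mb (13.2 to 19.4). New domains shared with OE-high had 32.1 per Mb (30.8 to 33.4), and those shared with both 35.3 (33.9 to 36.7). The order of the shares did not hold for the 34 domains in ES cells but not OE-high. Their density was the highest, 56.3 per Mb (34.9 to 86.1), from only 21 peaks in 0.373 Mb.

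Since score differed between these sets, the shares are also given by score. With a score under 8, 34.0% of 106 differentiation-specific domains (25.0 to 43.8) held an OE-high Fbxl19 peak, against 64.0% of 616 new domains shared with OE-high (60.0 to 67.8). From 8 to 9 the values were 40.6% of 64 against 69.2%, and from 9 to 11 they were 29.2% of 65 against 69.5%. At 11 and over, 15 of 29 held one (51.7%, 32.5 to 70.6) against 73.6%, a difference of -21.8 points (-41.3 to -2.77).

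**Figure D4:**
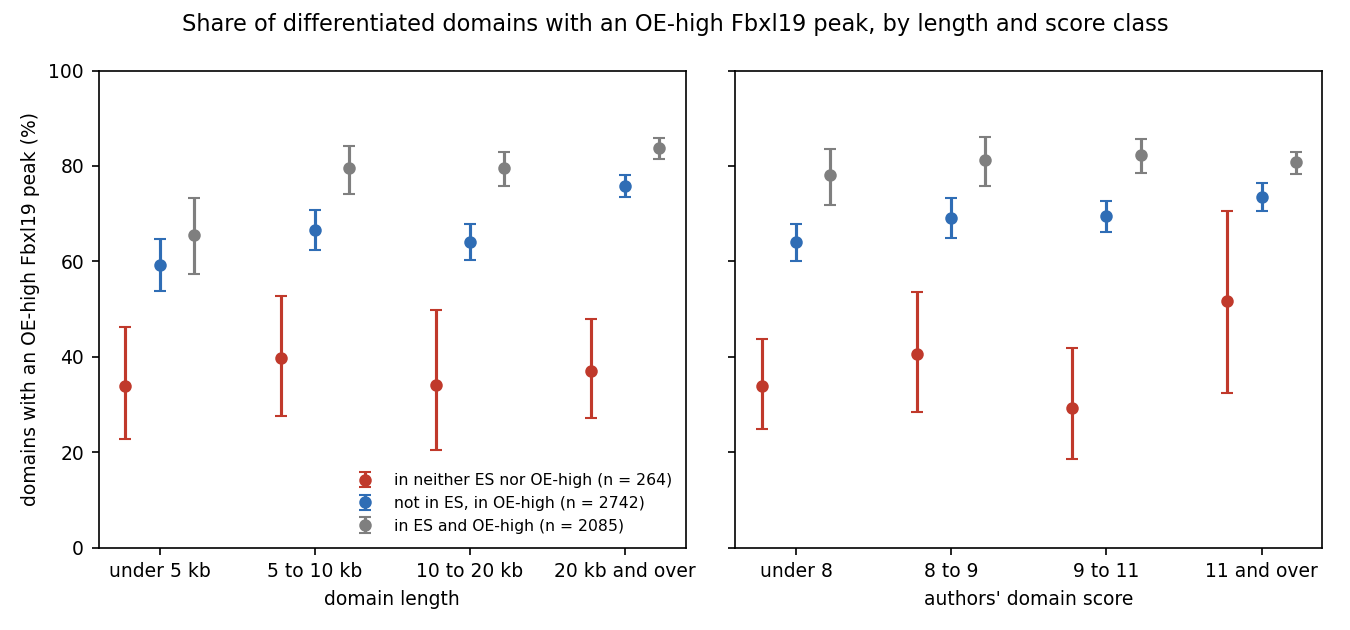
Percent of differentiated domains with an OE-high Fbxl19 peak, by length class on the left and by the authors' score on the right, with exact 95% intervals for counting error. Red is the 264 differentiation-specific domains, blue the domains in OE-high but not ES, grey those in both. Red lies below blue and grey in each class, nearest at a score of 11 and over, where only 29 domains are differentiation-specific.

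Few of these domains gathered several Fbxl19 peaks. Of the 96 with a peak, 87 held 1 and 9 held more (3.41% of the 264, beside 17.8% of all differentiated domains and 14.6% of new domains shared with OE-high). These shares partly repeat the lower share with any peak: among peak-holding domains the counts were 9 of 96 against 400 of 1905. They were not split by length, and the 264 were shorter, with a median of 10100 bp against 18400 bp in new domains shared with OE-high. By number of peaks, the longest domain was followed by chr2:167363600-167369799, with 3 peaks in 6200 bp, chr7:139936800-140005399, with 3 in 68600 bp, and then 6 domains tied at 2 peaks. The first of these in chromosome order were chr1:82233800-82287999, of 54200 bp, and chr1:155587600-155592999, of 5400 bp. The authors' score of these peaks had a median of 10.7, the same as in the whole OE-high Fbxl19 list. The domains with and without a peak were alike in median length, 9800 and 10100 bp, and in median score, 8.34 and 8.30.

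Where a differentiation-specific domain held an OE-high Fbxl19 peak, an OE-high Fbxl19 summit usually lay near one of its ends. Summits inside and outside the domain count alike, and in the shortest domains any summit inside is near an end. A summit lay within 1 kb of an end in 83 of the 96 (86.5%, 78.0 to 92.6), against 77.8% (75.9 to 79.6) of peak-holding new domains shared with OE-high. The difference of 8.66 points had an interval from -0.0369 to 15.1, which includes 0. In the 33 peak-holding domains of 20 kb and over, 27 had a summit at an end (81.8%, 64.5 to 93.0), against 74.3% of such new domains shared with OE-high, a difference of 7.54 points (-9.95 to 19.1). Counted over all 264, with domains that held no peak included, 90 had an OE-high Fbxl19 summit within 1 kb of an end (34.1%, 28.4 to 40.2). This compares with 56.9% of all differentiated domains and 55.3% of new domains shared with OE-high.

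For the 168 domains without an OE-high Fbxl19 peak, the nearest such peak was usually far off. The median gap was 62.1 kb (quartiles 20.7 and 184 kb), with 16 of the 168 within 5 kb. New domains shared with OE-high that lacked a peak had a median gap of 35.0 kb (11.9 and 93.4 kb). Within 100 kb on either side, 198 of the 264 had an OE-high Fbxl19 peak (75.0%, 69.3 to 80.1, beside 89.5% of all differentiated domains), against 89.8% (88.6 to 90.9) of new domains shared with OE-high. The mean number of flanking peaks was 2.22 against 3.97. An Rnf20 peak lay in these flanks for 47.3% (41.2 to 53.6, beside 64.6%), against 64.7% (62.9 to 66.5). The flanks begin at the domain ends, so a peak that crosses an end counts both in the domain and in a flank. The flank values thus partly repeat the shares within domains. Of the 168 domains without an OE-high Fbxl19 peak, 64.9% had one within 100 kb, against 76.2% of such new domains shared with OE-high.

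The OE-low clone, with tagged Fbxl19 below the endogenous level, gave a lower share in the 264 as well, at low counts. Its list held 2213 Fbxl19 peaks, against 13669 in that of the OE-high clone. An OE-low Fbxl19 peak lay in 11 of the 264 (4.17%, 2.10 to 7.33, beside 11.9% of all differentiated domains), against 9.19% (8.13 to 10.3) of new domains shared with OE-high, a difference of -5.02 points (-7.39 to -1.69). The difference was not seen evenly: under 5 kb the shares were 4.41% and 5.34% (difference -0.929, -5.51 to 7.30), and at scores of 9 to 11 they were 7.69% and 7.79% (-0.102, -5.68 to 9.42). At 20 kb and over they were 3.37% and 10.1% (-6.75, -9.96 to -0.377). Of the 11, 7 also held an OE-high peak and 4 did not. Those 4 were chr6:71779400-71795399, chrX:133266400-133275799, chr10:41169800-41176199 and chr18:81160600-81184999, named after their values were seen.

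Rnf20, the ligase that places the mark, was also scarcer. An Rnf20 peak lay in 30 of the 264 (11.4%, 7.80 to 15.8, beside 32.1% of all differentiated domains), against 26.5% (24.8 to 28.2) of new domains shared with OE-high and 42.3% (40.2 to 44.5) of those shared with both. The difference from those 2742 domains was -15.1 points (-19.1 to -10.4). By length the order held in all 4 classes, from 10.3% against 17.2% under 5 kb to 12.4% against 32.5% at 20 kb and over, though the interval of the difference reached above 0 in the 2 classes under 10 kb. The Rnf20 list comes from a single library of undifferentiated cells. With the 3 H2Bub1 lists held to the size of the ES list, as above, the shares were 23.8% against 30.4%.

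Rnf20 peaks were more frequent where an Fbxl19 peak was also present. Of the 96 domains with an OE-high Fbxl19 peak, 21 held an Rnf20 peak (21.9%, 14.1 to 31.5), and of the 168 without, 9 did (5.36%, 2.48 to 9.93). In new domains shared with OE-high the same split was 32.8% and 12.1%, so this order was not particular to the 264. Both kinds of peak were present in 7.95% of the 264 (beside 28.3% of all differentiated domains), and an Rnf20 peak without Fbxl19 in 3.41% (beside 3.80%). Peaks of the 3 lists together were found in 3 domains (1.14%, beside 7.14%): chr14:25303800-25306399 with a score of 14.2, chr15:79771000-79801399 with 10.2 and chr3:96039800-96043999 with 7.19. The first lies 3400 bp from an OE-high domain and 3.60 kb from an ES domain. No peak of any of the 3 lists lay in 155 of the 264 (58.7%, 52.5 to 64.7, beside 23.6%), against 26.6% (25.0 to 28.3) of new domains shared with OE-high.

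The knockdown lists, which the choice of domains did not use, held few of them. These are the shortest of the H2Bub1 lists, which limits how many domains of any kind could be matched. The differentiated knockdown list held 1090 domains over 15.6 Mb, and the knockdown ES list 1813 over 41.9 Mb. A domain of the differentiated knockdown list overlapped 9 of the 264 (3.41%, 1.57 to 6.37, beside 18.9% of all differentiated domains), so 255 were not listed there. The share was 7.51% (6.55 to 8.56) in new domains shared with OE-high and 35.6% (33.6 to 37.7) in those shared with both. The differences were -4.10 points (-6.22 to -0.989) and -32.2 points (-35.0 to -28.6). The first of these did not hold in all classes of length or score. Under 5 kb the shares were 2.94% in differentiation-specific domains and 1.48% in new domains shared with OE-high (difference 1.46, -1.78 to 8.81), and from 10 to 20 kb they were 6.82% and 5.85% (0.973, -4.82 to 12.9). At 20 kb and over they were 2.25% and 10.9% (-8.65, -11.4 to -2.78). By score the differences were 0.882 points under 8 (-1.78 to 6.18), -0.600 from 8 to 9 (-4.01 to 7.25), -0.669 from 9 to 11 (-4.76 to 7.75) and -12.3 at 11 and over (-16.5 to 2.24), where 1 of 29 domains was in the knockdown list. The interval included 0 in each of the 4 score classes.

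The 9 domains that overlapped the differentiated knockdown list ran from 2600 to 42800 bp, with a median of 10400 bp beside 10100 bp in all 264. Their scores ran from 7.38 to 11.6, with a median of 8.92 beside 8.32. By score they were led by chr11:49838800-49866599 (score 11.6), where the knockdown domain covered 4200 bp or 15.1% of the differentiated one and shared its left end. In chr4:94715000-94718799 (10.9) the knockdown domain covered 84.2%, in chr7:106495600-106501599 (10.8) 96.7%, in chr13:53561400-53568199 (9.17) 79.4% and in chr8:35870400-35880799 (8.92) 63.5%. OE-high Fbxl19 peaks were found in 5 of these 9 domains, and Rnf20 peaks in none, beside 36.4% and 11.4% of all 264. With only 9 domains, the absence of Rnf20 peaks allows a share of up to 33.3%, so it does not set them apart. The shares among all differentiated domains in the knockdown list are not given here.

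The undifferentiated knockdown list held another 9, which goes against calling these 9 specific to differentiation. They made up 3.41% of the 264 (1.57 to 6.37, beside 28.7% of all differentiated domains), against 6.49% (5.60 to 7.48) of new domains shared with OE-high. The difference of -3.08 points had an interval from -5.17 to 0.0128. The 5 with the highest scores were chr10:88193200-88198599 (score 12.2), chr2:113986400-114001199 (10.2), chr11:4639600-4647199 (9.52), chr4:45206000-45206799 (9.15) and chr10:88283200-88291799 (8.09). The first and last lie next to each other in the differentiated list. The pair of domains nearest to an OE-high domain, at 89814400 on chromosome 1 and 6085000 on chromosome 17, were also among the 9. The domain at 4639600 on chromosome 11 fell inside a knockdown domain of 452400 bp. No domain was in both knockdown lists (0 of 264, where 3 counts would be 1.14% and the exact upper bound is 1.39%, beside 12.2% of all differentiated domains and 41 of the 2742 new domains shared with OE-high). Of the 264, 18 were in either (6.82%, 4.09 to 10.6, beside 35.4% of all differentiated domains). The remaining 246 (93.2%, 89.4 to 95.9, beside 4.80%, a share that the choice of domains partly fixes) were listed in differentiated cells alone among the 5 H2Bub1 lists.

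**Figure D5:**
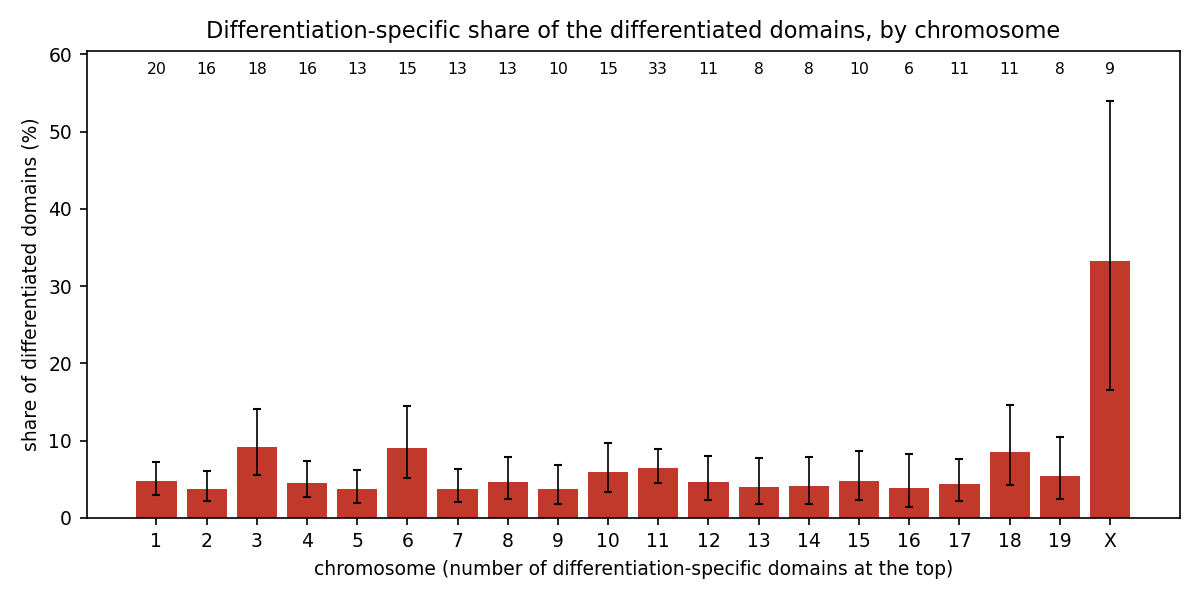
Bars give the percent of each chromosome's differentiated H2Bub1 domains that are differentiation-specific, with exact 95% intervals for counting error, and the numbers at the top give their count. Autosomes lie between 3.67% and 9.14%, and chromosome X is at 33.3%, 9 of 27 domains.

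By chromosome, the share of differentiated domains that were differentiation-specific ran from 3.67% on chromosome 5 to 9.14% on chromosome 3 among autosomes, with a median of 4.58%. Chromosome 6 had 9.04% (5.15 to 14.5), chromosome 18 had 8.46% (4.30 to 14.6), and chromosome 11 held the highest number, 33 of 510. Among autosomes, the share with an OE-high Fbxl19 peak was highest on chromosome 14 (7 of 8) and lowest on chromosome 6 (1 of 15). It was 36.4% in all 264. Both are extremes of small counts, and the share of all differentiated domains on each is not given here. The peak list was uneven too, with 684 OE-high Fbxl19 peaks on chromosome 14 and 498 on chromosome 6. Chromosome 1 held 20 differentiation-specific domains, 9 with an OE-high Fbxl19 peak and none with Rnf20. The 16 on chromosome 4 and the 8 on chromosome 19 held no Rnf20 peak either, where the share in all 264 was 11.4%. These autosomes were named because they had none, and their numbers of domains are small.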

How the data were processed

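The series holds 21 samples in 12 groups, of which 4 are input DNA with no list used here. The analysis used the 8 deposited lists, 5 of H2Bub1 domains and 3 of peaks. The mm9 build, MACS and BWA 0.5.9-r16 are named, without roles, in the submitters' processing notes. Per the file headers, the H2Bub1 lists come from BCP, a caller of broad domains, on combined samples. The authors' deposited score per domain has no stated formula and is at least 7 in each line, and another deposited column is the domain length in bp. For the Fbxl19 lists no caller is stated, and the authors' peak score there is used for ranking only. Whether the third OE-high H2Bub1 sample entered its combined list is not stated.

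H2Bub1 and Rnf20 starts were read as counted from 0 and Fbxl19 starts from 1. Overlap meant at least 1 bp, and an end was hit by a listed summit within 1 kb. Intervals are exact Clopper-Pearson at 95%, and an interval for a difference combines both in squares. For a count of 0, the share that 3 counts would give is also stated. Peaks per Mb carry exact Poisson intervals. Named domains were the 8 of highest score, the 5 longest, the 5 with most OE-high Fbxl19 peaks, the 5 of highest score in each knockdown list, those with all 3 kinds of peak (3 in all), and the 3 nearest to and farthest from an OE-high domain. The domains, comparisons and naming rule were chosen with earlier results of these data known. Score classes were added after the values were seen. No mm9 genome or annotation was used here, so no gene is named and no sequence shown. The rule was tested on simulated data, where it recovered 1500 of 1500 planted domains among 5000, and bedtools 2.31.1 gave the same count on the deposited lists. Python 3.11.15, NumPy 2.4.6, SciPy 1.17.1 and matplotlib 3.10.9 were used.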

Additional observations from a re-analysis of the deposited data

How the results depend on the processing

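No single sample could be left out, because each list pools the samples of its group, and depth per sample is unknown. No paired analysis was possible because the lists carry no replicate numbers. The OE-high list is the longest of the H2Bub1 lists, and absence from it depends on its size and threshold. The number of differentiation-specific domains was 47 with the top 50% of the differentiated list by score and 576 with the 3 lists at the size of the ES list, and between 237 and 329 under the other 7 alternatives. The 6 shares lay below those of the rest of the differentiated list under all 96 alternatives run, and below those of new domains shared with OE-high in 94. The other 2 were both knockdown lists with a score under 8, and the settings by score were chosen after seeing the data. The interval of the difference from new domains shared with OE-high lay wholly below 0 in 78 of the 96. For the knockdown ES share it did so in 7 of 16. The alternatives reuse the same lists, so they are not independent.

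The OE-high Fbxl19 share was 42.6% when under 50% coverage counted as absent, 46.8% in the top 50% of the differentiated list, 64.2% at equal list size, 27.7% when an overlap had to cover 50% of the shorter interval, 19.3% with the top 50% of peaks and 51.7% at a score of 11 and over. The share with a summit within 1 kb of an end was 44.7% in the top 50% of the list, 52.4% at equal list size, 17.8% with the top 50% of peaks, 26.5% within 500 bp, 28.3% at a score under 8 and 48.3% at 11 and over. The OE-low share was 1.89% both with the top 50% of peaks and at a score under 8, 7.29% at equal list size and 6.38% in the top 50% of the list (difference from new domains shared with OE-high -3.29 points, -8.68 to 7.99), and the Rnf20 share 23.8% at equal list size and 5.68% with the top 50% of peaks. The differentiated knockdown share was 7.29% when under 50% coverage counted as absent, 6.38% in the top 50% of the list and 1.14% with the top 50% of knockdown domains. The knockdown ES share was 7.60% and 0.758% under the first and last of these.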

Other observations

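Chromosome X held 9 of the 264 differentiation-specific domains, among 27 differentiated domains (33.3%, 16.5 to 54.0), against 255 of 5098 on autosomes (5.00%). None of the 9 held an OE-high Fbxl19 peak (0 of 9, which allows a share of up to 33.3%), none held an Rnf20 peak (beside 4 of the 27), 1 held an OE-low peak and none was in a knockdown list. OE-high Fbxl19 peaks were few on this chromosome, 52 in all, and lay in 2 of its 27 differentiated domains. The 9 ran from 800 to 147000 bp, with scores from 7.03 to 29.0. The longest was chrX:149057200-149204199 with a score of 8.43, and chrX:39502800-39600199, at 97400 bp, was the one with an OE-high Fbxl19 summit within 1 kb of an end, in a peak that began 0.248 kb outside the domain. Chromosome X was picked out after its share was seen. The domains here number 61 in the OE-high list and 41 in the ES list.

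The 34 differentiated domains that were in the ES list but not in the OE-high list form the other part of the 298 differentiated domains absent with overexpression. The median length was 10100 bp for the 264 differentiation-specific domains against 4300 bp for these 34, and the median score 8.32 against 11.1. All 19 of these 34 with an OE-high Fbxl19 peak had a summit within 1 kb of an end. The differentiated knockdown list held 3.41% of the 264 (1.57 to 6.37) against 29.4% of the 34 (15.1 to 47.5). This contrast lay in the top score class. At a score of 11 and over the list held 3.45% of 29 differentiation-specific domains against 55.6% of 18. Below that score it held none of the 34.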
